A study of Mus musculus with 8 samples.

Results

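The renin-angiotensin system was followed here through 7 genes, Ren1, Agt, Ace, Agtr1a, Atp6ap2, Enpep and Mme, taken by name from the probes of the array. All 7 of the 18217 genes with a named probe were measured, by 11 probes in all, and each of these 11 probes was well above background on all 8 arrays. Kidney RNA came from mice aged 8 weeks, 4 NEKO and 4 littermate controls, with 2 females and 2 males in each group, and each mouse had an array of its own. NEKO mice are Keap1-/-, Nrf2 Flox/Flox and K5-Cre, so that Keap1 is absent from the whole body and Nrf2 is deleted only where the keratin 5 promoter drives Cre, in squamous epithelium such as that of the oesophagus. All 4 controls were Keap1+/- and Nrf2 Flox/Flox, and they were therefore heterozygous and not wild type. Both control males and 1 control female carried K5-Cre (K1Cre), whereas the other control female did not (K1). The design places the kidneys of mice with an activated Nrf2 beside those of mice that keep Keap1, and the question asked of these 7 genes is whether their transcripts differed between them.

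In this hormone system renin, released from the juxtaglomerular cells at the entrance of the glomerulus, cuts angiotensinogen to angiotensin I, which angiotensin-converting enzyme turns into angiotensin II. Angiotensin II acts on the AT1 receptor of vessels and tubules and drives the release of aldosterone, and peptidases of the proximal tubule brush border break it down. The system defends blood pressure and salt balance.

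A level in what follows is the log2 of the background-subtracted signal of a probe less the 75th percentile that the non-control probes of that array had, so 0 is the brightness of that percentile and 1 unit is a doubling. A difference is NEKO minus control. It comes from a limma model with sex as a term, fitted to 13570 named genes and 6023 unnamed transcripts, and a gene was called where its p adjusted over all of them (Benjamini-Hochberg) was under 0.05. The females were on 1 slide and the males on another, and sex cannot be told apart from slide, although each slide held 2 NEKO and 2 control mice. On each array 61.8% to 65.7% of the probes cleared the background test, none was saturated, and the number of arrays limits the precision. All 8 kidney tissue markers were measured, at a mean level of 5.02 to 5.24 in control mice and 4.69 to 5.17 in NEKO mice. The deleted gene, Keap1, was at 1.77 to 1.92 in control mice and at 0.06 to 0.45 in NEKO mice (difference -1.63, adjusted p = 0.0046 from limma).

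None of the 7 genes was called in the comparison of NEKO with control kidneys. Over all that was tested 0.225% of genes and transcripts were called. At an unadjusted p under 0.05 from limma the count of the 7 was also 0, against 18.0% of everything tested, and the methods' comparison, which allows unequal variances, gave 0 of 7 as well. The groups overlapped in all 7 genes, whereas they did not overlap in 9.21% of all genes and transcripts. Of the 7 differences, 4 were above 0 and 3 below, from -0.17 for Mme to 0.27 for Ren1. The median of the 7 was 0.10, and that of all genes and transcripts was -0.03.

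**Figure D1:**
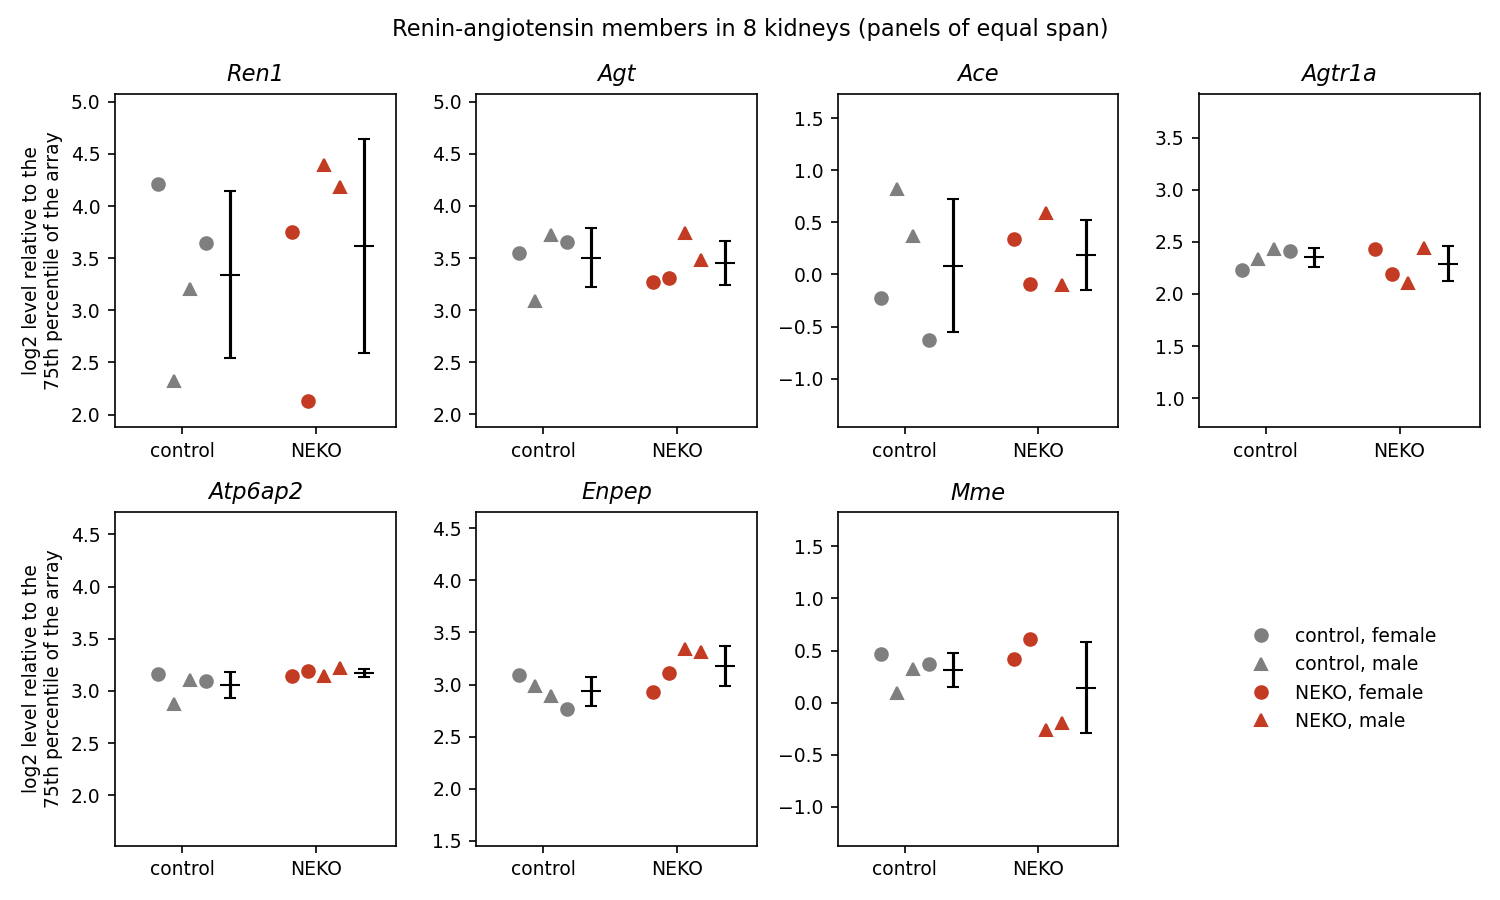
Level of each of the 7 genes in the 8 kidneys, as log2 signal above or below its 75th percentile, with controls in grey, NEKO mice in red, females as circles, males as triangles, and the mean and SD of each group (n = 4) at the right of its points. Every panel has the same span, so the spread of Ren1, from 2.13 to 4.40, can be set beside that of Atp6ap2, from 2.88 to 3.22.

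Ren1 encodes renin, the protease that starts the cascade. In control kidneys it was at 4.21 and 3.65 in the females and at 2.32 and 3.20 in the males. In NEKO kidneys it was at 3.75 and 2.13 in the females and at 4.40 and 4.18 in the males. The lowest and the highest of the 8 levels were thus both in NEKO mice, and the 2 groups overlapped almost throughout. The mean was 3.34 ± 0.80 in controls and 3.62 ± 1.03 in NEKO mice (SD, n = 4 each). The difference was 0.27 (standard error 0.60, adjusted p = 0.83 from limma), and the exact two-sided permutation test of 4 against 4 gave p = 0.657, where 0.0286 is the smallest it allows. Its 95% interval ran from -1.15 to 1.70, which is 0.451-fold to 3.24-fold, so neither a halving nor a doubling of renin transcript was outside it. The residual SD of Ren1 was 1.00 on the log2 scale, at the 98.4th percentile of all genes and transcripts tested. The model behind it has genotype and sex but no interaction. A genotype effect that differs between the sexes, as given below, therefore adds to this SD and to the width of the interval. Without the control male at 2.32 the difference was -0.15, and without the NEKO male at 4.40 it was -0.02. In RNA of a whole kidney, fewer cells of a type and less RNA per cell cannot be told apart.

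The stretch of 250 bases before the start of Ren1 is shown with those of Ace and Enpep, because Ren1 varied most of the 7 and because the other two hold the one motif searched for here that bears on Nrf2. Sequences are from RefSeq on GRCm38.p6, 5′ to 3′ on the strand of the gene and ending at the base before the start. Capitals mark TATAAA, the TATA box, and TGANNNNGC, a loose form of the core of the antioxidant response element that Nrf2 binds with a small Maf partner, each searched on both strands.
Ren1, chr1:133350424-133350673, plus strand: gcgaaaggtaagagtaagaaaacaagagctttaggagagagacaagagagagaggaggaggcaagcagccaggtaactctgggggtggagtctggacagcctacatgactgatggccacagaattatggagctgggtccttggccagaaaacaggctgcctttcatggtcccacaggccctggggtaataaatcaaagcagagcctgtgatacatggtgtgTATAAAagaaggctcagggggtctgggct
Ace, chr11:105967698-105967947, plus strand: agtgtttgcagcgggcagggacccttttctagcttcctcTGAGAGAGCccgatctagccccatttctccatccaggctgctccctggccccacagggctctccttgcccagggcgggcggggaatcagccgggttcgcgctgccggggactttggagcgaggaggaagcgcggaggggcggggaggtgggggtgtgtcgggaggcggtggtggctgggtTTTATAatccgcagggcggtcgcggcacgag
Enpep, chr3:129332750-129332999, minus strand: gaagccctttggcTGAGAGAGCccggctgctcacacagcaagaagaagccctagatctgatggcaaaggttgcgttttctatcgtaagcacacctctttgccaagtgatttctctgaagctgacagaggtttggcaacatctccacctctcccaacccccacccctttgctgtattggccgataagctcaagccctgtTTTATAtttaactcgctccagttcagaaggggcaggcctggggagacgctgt
In Ren1 the capitals are a TATAAA, 29 to 24 bases before the start. Ace, here the first of its 2 listed starts, holds the letters tgagagagc at 211 to 203 bases before the start and a TATAAA on the opposite strand (printed as TTTATA) at 31 to 26. Enpep holds the same tgagagagc at 237 to 229 bases before the start and an opposite-strand TATAAA at 52 to 47. The table had promoters for 6 of the 7 genes, 9 in all, and Agtr1a is not among them. TGANNNNGC was in 2 of the 9 and TATAAA in 4, the remaining one in Agt at 30 to 25 bases before the start. Of 32851 promoters of the same length, 35.2% held TGANNNNGC and 12.4% held TATAAA. These matches are letters in a window, with no binding measured.

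A second Ren1 probe, listed under the same transcript, tracked the first closely. Its levels correlated with those of the first at r = 0.99 over the 8 arrays, which share their RNA and scaling with the first probe by construction. The difference was 0.33 (standard error 0.55, adjusted p = 0.78 from limma). Ren2 is a near-identical copy of Ren1 that some mouse strains carry and others lack, and the mice were on a mixed background of 129Sv/J and C57BL/6J. The probe named Ren2 had the highest correlation with Ren1 of 12698 genes compared (r = 0.99, rank correlation 1.00). Its levels were 3.13, 2.49, 1.37 and 2.09 in controls and 2.50, 0.81, 3.23 and 2.85 in NEKO mice, females first. The difference was 0.08 (standard error 0.60, adjusted p = 0.96 from limma). The order of the 8 mice was the same on the Ren1 and Ren2 probes, and whether each probe reads 1 or both transcripts was not tested.

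The renin difference had opposite signs in females and males, and the test of this did not pass the adjusted threshold. In females NEKO was below control by a log2 difference of -0.99 (standard error 0.56), whereas in males NEKO was above control by 1.53 (standard error 0.56). The male groups did not overlap, which was so for 52.4% of all genes and transcripts, and the female groups did. By mean level the 4 kinds of mice ranked NEKO males at 4.29, control females at 3.93, NEKO females at 2.94 and control males at 2.76. Each neighbouring pair in that order overlapped. The effect of genotype in males exceeded that in females by 2.52 (standard error 0.79, 95% interval 0.60 to 4.44), with an unadjusted p of 0.018 and an adjusted p of 0.316 from limma. On the second Ren1 probe this sex difference was 2.31 (adjusted p = 0.329 from limma), and on the Ren2 probe it was 2.46 (adjusted p = 0.340 from limma). None of the 7 genes passed the adjusted threshold of this interaction, as against 0.0153% of everything tested. At an unadjusted p under 0.05 it was passed by 2 of the 7, Ren1 and Mme, and by 10.5% of everything tested.

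**Figure D2:**
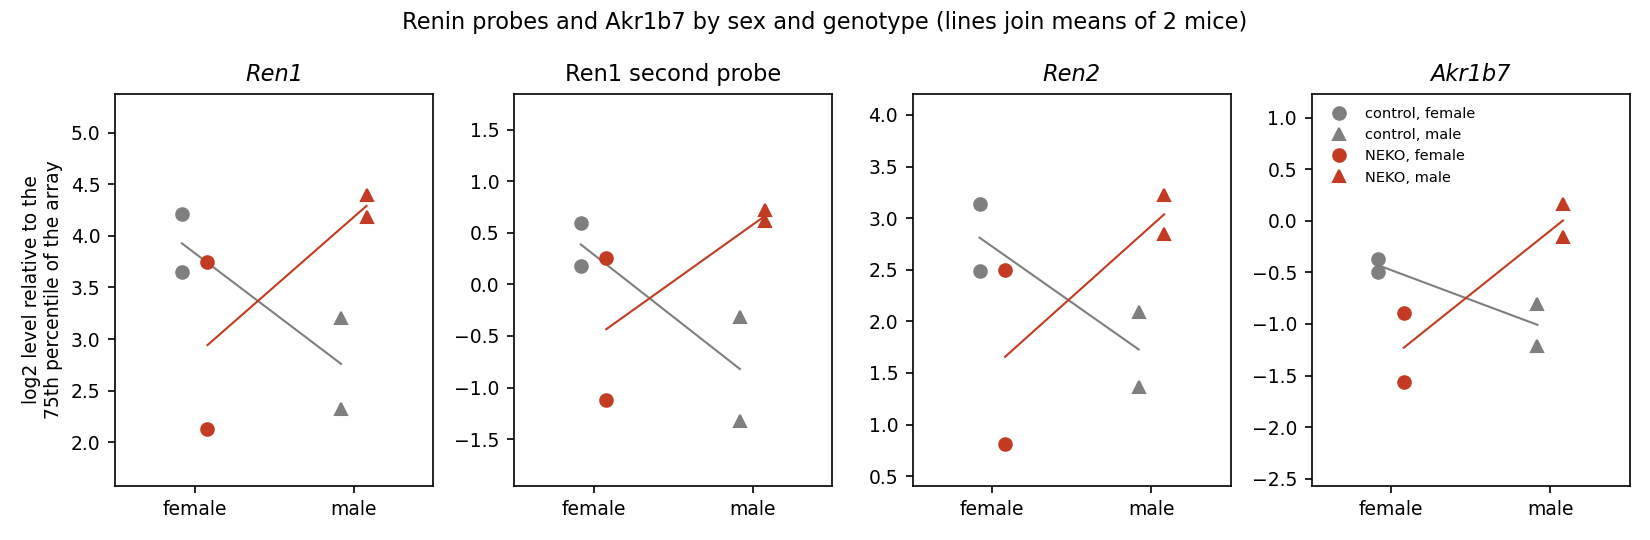
Levels of both Ren1 probes, the Ren2 probe and Akr1b7 in females and males, as log2 signal above or below its 75th percentile, with 1 symbol per mouse and lines joining the means of 2 mice. The control mean is higher in females and the NEKO mean in males in each panel, and only for Akr1b7 are NEKO and control mice apart in both sexes.

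Among the other genes that mark juxtaglomerular cells, Akr1b7, an aldo-keto reductase made in renin cells and chosen for description after its values were seen, had the pattern of Ren1. Its levels were -0.37 and -0.49 in control females and -0.89 and -1.56 in NEKO females. Males had the opposite order, with -1.21 and -0.80 in controls against 0.16 and -0.15 in NEKO mice. NEKO and control mice did not overlap in either sex and lay in opposite directions, which was so for 5.95% of everything tested. It was also so for 4 of 22 tested genes listed for renin synthesis and release, a list that holds Akr1b7 itself. Another of the 4, Ptger2, named after its values were seen, was well above background on 2 control and 2 NEKO arrays. In a list of genes that respond to angiotensin II such opposite separation was found for 4 of 12. For Akr1b7 the effect in males less that in females was 1.81 (standard error 0.37, unadjusted p = 0.0024, adjusted p = 0.147 from limma). Rgs5 and Gja5, a pericyte regulator of G-protein signals and the connexin that couples renin cells, were also looked at after their values were seen. Rgs5 lay above control in NEKO mice by 0.89 (adjusted p = 0.235 from limma) and Gja5 by 0.38 (adjusted p = 0.390 from limma). Neither had the change of sign, with 0.08 in females and 1.69 in males for Rgs5 and 0.19 and 0.57 for Gja5. The sex difference of the effect was 1.61 for Rgs5 (standard error 0.29, unadjusted p = 0.0013, adjusted p = 0.130 from limma) and 0.38 for Gja5 (adjusted p = 0.833 from limma). Over the 8 arrays Ren1 correlated with Akr1b7 at r = 0.93, with Rgs5 at 0.63 and with Gja5 at 0.17. Those 3 values became 0.83, 0.89 and 0.83 without the 2 mice farthest from the median of Ren1. One of those 2, a NEKO female, had the lowest Ren1 and the highest Gja5, at 2.13 and -1.93. In the same order the 3 values were 0.99, 0.98 and 0.90 within controls. Within NEKO mice they were 0.94, 0.60 and -0.71, so Gja5 did not track Ren1 there. Over the 4 juxtaglomerular markers the mean level of a mouse ran from -0.66 to 0.51 in controls and from -0.24 to 0.87 in NEKO mice.

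Some other cell type lists also differed between the sexes in their medians, higher or lower in male NEKO kidneys, and some differed little. All 5 urothelial markers lay above control, with a median difference of 0.35 in females and 2.52 in males. Their mean level ran from -2.63 to -1.09 in controls and from -1.29 to 0.41 in NEKO mice. Of 8 smooth muscle and pericyte markers 6 lay above control, with a median of 0.07 in females and 0.80 in males, and a mean level of 0.06 to 0.59 in controls and 0.31 to 0.80 in NEKO mice. The median changed sign for 6 tested macrophage markers, from -0.52 in females to 0.32 in males. It also did for 5 tested lymphocyte markers, from -0.28 to 0.54. Of 7 tubular injury markers 5 lay above control and 2 below, with a median of 0.36 in females and 1.10 in males. The 2 below, named after their values were seen, were Clu, at -0.64 in females and -1.07 in males, and Havcr1, at -0.38 and -0.45. Havcr1 was well above background on 3 control and 3 NEKO arrays. Of 6 neutrophil markers 3 were tested, while Elane and Cxcr2 were well above background on 0 and 1 arrays and Ly6g had no named probe. The 3, described after their values were seen, were S100a9, with a difference of 0.46 in females and 2.81 in males, Mpo, with -0.25 and 0.35, and S100a8, which was well above background on 1 control and 3 NEKO arrays and is given no difference here. In the other direction, 5 markers of intercalated cells had a median of -0.35 in females and -1.12 in males, 5 of the S3 segment of the proximal tubule 0.22 and -0.58, and the 8 kidney tissue markers -0.08 and -0.33. For 10 proximal tubule markers the median was 0.01 in females and 0.06 in males, and for 8 endothelial markers 0.07 and 0.23. It was 0.05 and 0.17 for 6 podocyte markers and 1.22 and 0.98 for 2 tested red cell markers. The median of everything tested was -0.03 in each sex. No gene of these lists was called, and their part in the renin values was not tested.

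Agt encodes angiotensinogen, the substrate of renin. Controls had levels of 3.55 and 3.66 in females and 3.09 and 3.72 in males, and NEKO mice 3.27 and 3.31 in females and 3.74 and 3.48 in males. The groups overlapped, with means of 3.50 ± 0.28 and 3.45 ± 0.21 (SD, n = 4 each). The difference was -0.05 (standard error 0.17, 95% interval -0.46 to 0.36, adjusted p = 0.89 from limma). Both NEKO females lay below both control females, by 0.31 on average, a separation that 42.3% of all genes and transcripts had in females. The males overlapped, and the sex difference of the effect was 0.52 (adjusted p = 0.635 from limma).

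Ace encodes angiotensin-converting enzyme, which forms angiotensin II and sits on endothelium and on the proximal tubule. It was at -0.23 and -0.63 in control females and at 0.82 and 0.37 in control males. NEKO females were at 0.34 and -0.09 and NEKO males at 0.59 and -0.10. In controls both males were above both females, by 1.03 on average, and the NEKO males and females overlapped, 0.12 apart. The difference between genotypes was 0.10 (standard error 0.26, 95% interval -0.52 to 0.72, adjusted p = 0.86 from limma). It was 0.55 in females, where the genotypes did not overlap, and -0.35 in males, where they did. The effect in males less that in females was -0.91 (adjusted p = 0.541 from limma) on this probe and -1.43 (unadjusted p = 0.011, adjusted p = 0.287 from limma) on the second Ace probe, whose levels correlated with the first at r = 0.91 over the 8 arrays.

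**Figure D3:**
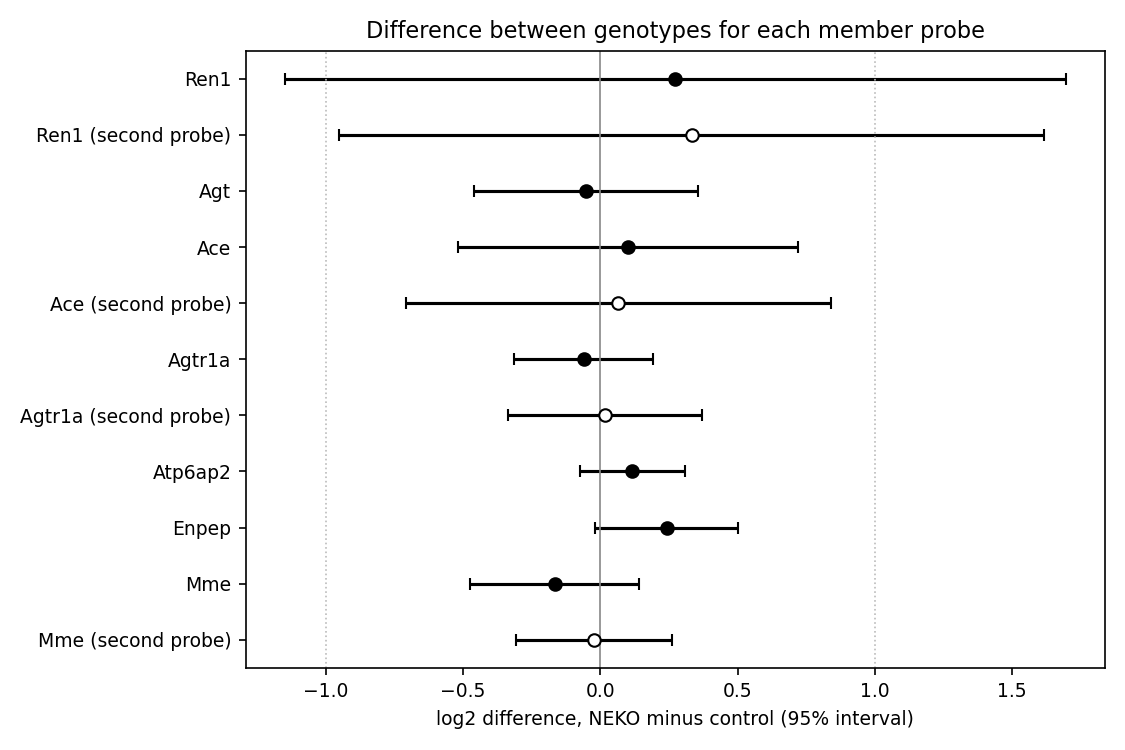
Log2 difference between NEKO and control for each of the 11 probes with its 95% interval from limma, with the brightest probe of a gene filled and a second probe open. Every interval spans 0 (solid line), and of the 7 filled ones only that of Ren1, -1.15 to 1.70, crosses the dotted lines at a 2-fold difference.

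Agtr1a encodes the main AT1 receptor of rodents, through which angiotensin II constricts vessels and raises sodium uptake. It held a narrow range, from 2.23 to 2.43 in controls and from 2.11 to 2.44 in NEKO mice. The difference was -0.06 (standard error 0.11, 95% interval -0.31 to 0.19, adjusted p = 0.78 from limma). A second probe for the receptor gave 0.02 (standard error 0.15, adjusted p = 0.97 from limma), and the 2 probes correlated at r = 0.55. By sex the first probe gave -0.02 in females and -0.11 in males.

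Atp6ap2 encodes the (pro)renin receptor, which is also an accessory subunit of the vacuolar proton pump. Its levels were 3.16 and 3.09 in control females and 2.88 and 3.10 in control males. All 4 NEKO mice lay between 3.14 and 3.22. Only 1 control, a female, reached that range, and the mean was 3.06 ± 0.13 in controls against 3.17 ± 0.04 in NEKO mice (SD, n = 4 each). The difference was 0.12 (standard error 0.08, 95% interval -0.08 to 0.31, adjusted p = 0.47 from limma), with p = 0.0857 in the exact permutation test. Its residual SD was at the 17.1th percentile of everything tested, so this interval was the narrowest of the 7.

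Among the peptidases that degrade angiotensins, Enpep and Mme had differences of opposite sign, and that of Mme was near 0 on its second probe. Enpep encodes aminopeptidase A, which turns angiotensin II into angiotensin III. In controls it was at 3.10 and 2.76 in females and 2.99 and 2.89 in males, and in NEKO mice at 2.93 and 3.12 in females and 3.34 and 3.31 in males. The female genotypes overlapped, whereas both NEKO males were above all 4 controls. The difference was 0.24, or 1.18-fold (standard error 0.11, 95% interval -0.02 to 0.50), with an unadjusted p of 0.064 and an adjusted p of 0.30 from limma, and the exact permutation test gave p = 0.114. It was the smallest unadjusted p of the 7. The sex difference of its effect was 0.29 (adjusted p = 0.698 from limma).

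Mme encodes neprilysin, which cuts angiotensin I among many other peptides. Controls were at 0.47 and 0.37 in females and 0.09 and 0.32 in males. NEKO females were at 0.42 and 0.61, and NEKO males, at -0.26 and -0.19, lay below all other mice. The difference was -0.17 (standard error 0.13, 95% interval -0.47 to 0.14, adjusted p = 0.52 from limma). In females it was 0.10 and in males -0.43, and the sex difference of -0.53 had an unadjusted p of 0.026 and an adjusted p of 0.364 from limma. On the second Mme probe, which correlated with the first at r = 0.70, the genotype difference was -0.02 (adjusted p = 0.94 from limma). There the NEKO males, at -0.82 and -1.015, overlapped with the control males, at -0.95 and -0.57. The sex difference on that probe was smaller, -0.27 (adjusted p = 0.766 from limma).

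Taken by sex on the brightest probe of each gene, NEKO and control males did not overlap in 4 of the 7. Ren1, Atp6ap2 and Enpep were higher and Mme lower in NEKO males, and the share over everything tested was 52.4%. In females they did not overlap in 2 of the 7, Ace higher and Agt lower, against 42.3%. On these probes no gene of the 7 was apart in both sexes. On the second probes the males overlapped for Mme, and Ace was apart in both sexes, higher in NEKO females and lower in NEKO males. On the second Agtr1a probe the females were narrowly apart, at -0.4274 and -0.3037 in NEKO against -0.7357 and -0.4295 in control mice. For 6 of the 7 genes the 95% interval of the genotype difference lay within a 2-fold change in either direction, and the exception was Ren1.

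**Figure D4:**
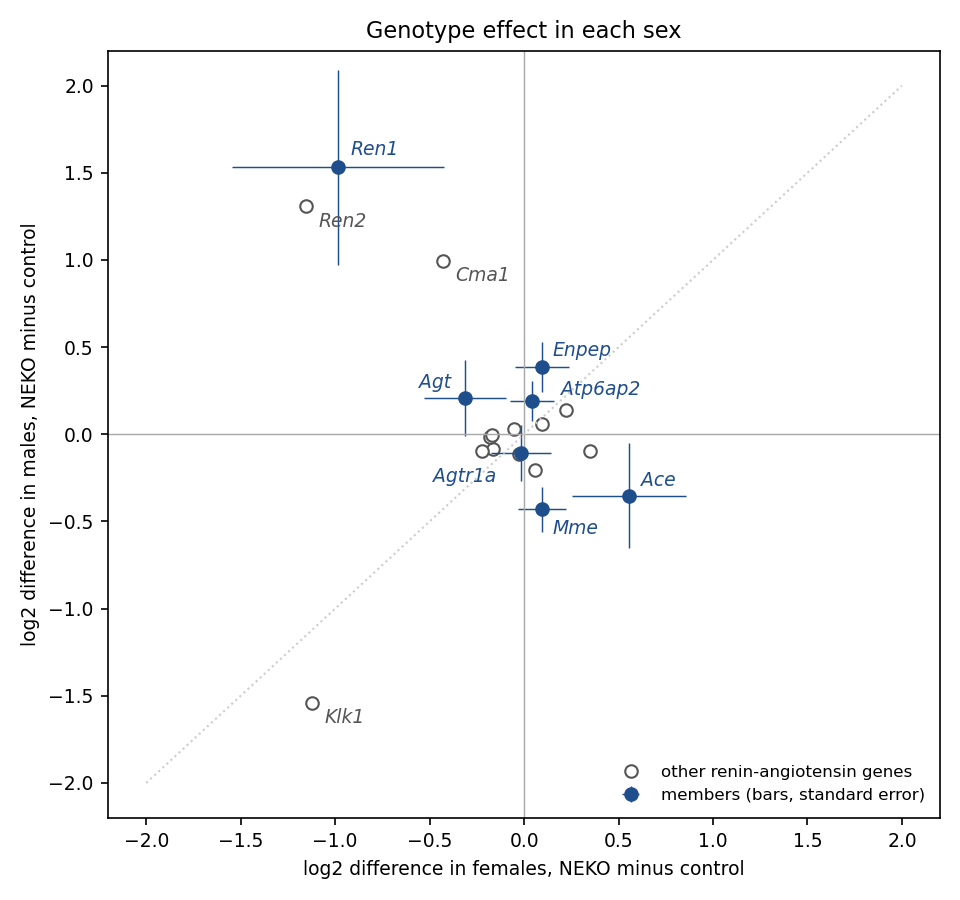
Log2 difference between NEKO and control in males against that in females for the 7 genes (filled, bars are standard errors) and for 13 other genes of the system (open), with equal effects on the dotted diagonal. Ren1 is at -0.99 in females and 1.53 in males and stands with Ren2 away from the diagonal, and Klk1, at -1.12 and -1.54, lies near it.

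For each of the 7 genes the 3 named genes with the most similar levels over the 8 arrays were looked up, among 12698 genes that were well above background on every array. After Ren2, those most like Ren1 were Ubtd2 and Gpsm3 (r = 0.96 each). Most like Agt were Rarres2, Ppp1r12c and Rpp25l (r = 0.93 to 0.94), and most like Ace were Acot12, a liver and kidney acyl-CoA thioesterase, Gm11992 and Mtif3 (r = 0.95 to 0.97). Agtr1a was closest to Rnaseh2a, Aimp2 and Tmem35b (r = 0.91 to 0.97), and Atp6ap2 to Thsd1, Serpina1d and Gsta1 (r = 0.96 to 0.97). Enpep was closest to AY761185, the retinoid X receptor gene Rxra, and Ube2e2 (r = 0.96 to 0.97), and Mme to Speer4d, Acsl5 and Snx25 (r = 0.98 to 0.99). These are the best of many correlations over 8 mice of 2 sexes and 2 genotypes, and they are given as descriptions.

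Of 19 further genes of the system, 13 were tested and none was called in either direction. The median difference of the 13 was -0.07, beside -0.03 for everything tested, and 1 of them, Klk1, had an unadjusted p under 0.05 from limma, while the methods' comparison gave 0. Over everything tested limma gave 7.37% higher and 10.6% lower at that threshold, and the methods' comparison passed 11.3%. Cma1, the mast cell chymase that also forms angiotensin II, was well above background on 2 control and 3 NEKO arrays and was looked at after its values were seen. Its difference was -0.43 in females and 1.00 in males, with an adjusted p of 0.348 from limma for the interaction. Agtr1b, Agtr2, Mas1, Cpa3 and Ctsg had probes that were well above background on 0 to 3 arrays, and Mrgprd had no named probe. Agtr1b, Agtr2 and Mas1 encode further receptors for angiotensin peptides. Klk1, tissue kallikrein of the distal tubule, which releases kinins that Ace degrades, was singled out after its values were seen. It was at 7.23, 6.44, 5.88 and 5.80 in controls and at 5.45, 5.99, 4.60 and 4.01 in NEKO mice, females first. Within each sex both NEKO mice lay below both controls. Such separation, in either direction, held for 42.3% of everything tested in females and 52.4% in males. Over the sexes the Klk1 groups overlapped. The difference was -1.33 (standard error 0.23, adjusted p = 0.074 from limma, and 0.046 under the normexp background correction). Over the alternatives its adjusted p reached 0.450, and 21 of 23 did not call it. Klk1 has close copies in the mouse, and which of them the probe reads was not tested.

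Genes listed for renin synthesis and release, with the marker Akr1b7 among them, were also free of calls, with 0 of the 22 tested of 26 listed. Their median difference was 0.06, and at an unadjusted p under 0.05 limma gave 3 higher and 1 lower, near the 18.0% of everything tested, and 2 passed by the methods' comparison, against 11.3%. Nr2f2, an orphan nuclear receptor of vessel walls, was at 2.71 to 2.88 in controls and at 3.03 to 3.22 in NEKO mice, with a difference of 0.34 (standard error 0.07, adjusted p = 0.100 from limma). Adrb1, the beta-adrenergic receptor through which sympathetic nerves release renin, was at -2.59 to -2.40 in controls. In NEKO females it was at -2.63 and -2.71, just below that range, and in NEKO males at -3.58 and -4.09. Its difference was -0.77 (standard error 0.24, adjusted p = 0.186 from limma). These 2 were the genes of the list whose groups did not overlap, 1 of 22 higher, against 3.88% of everything tested, and 1 of 22 lower, against 5.33%. Ptgs2, Nos1 and Tbx18, of which the first 2 mark the macula densa, were well above background on 0 arrays and Pde3a on 1.

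**Figure D5:**
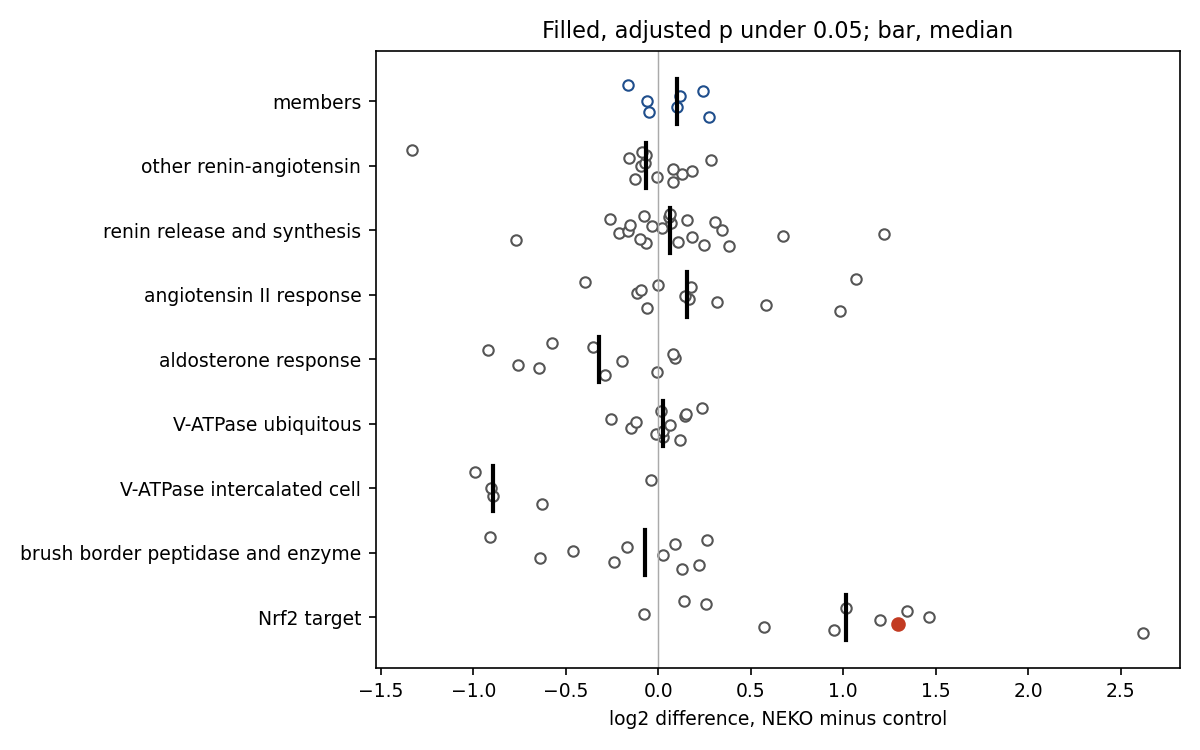
Log2 difference between NEKO and control for each tested gene (point) of the 7 genes and of the lists around them, with list medians as bars and called genes filled. The 7 genes lie between -0.17 and 0.27, and the single filled point is Txnrd1 in the Nrf2 target list.

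Downstream of the hormone, 0 of 12 genes of an angiotensin II response list and 0 of 10 genes of an aldosterone list were called. The angiotensin II list had a median of 0.15, -0.15 in females and 0.52 in males, with 2 genes higher and 0 lower at an unadjusted p under 0.05 from limma, against 7.37% and 10.6% of everything tested, and 1 by the methods' comparison, against 11.3%. The aldosterone list holds the receptor gene Nr3c2 and the steroid enzyme gene Hsd11b2 beside genes that respond to the hormone. Its genes are named here after their values were seen. Of the 10, 8 lay below control, as did 56.2% of everything tested, and the median was -0.32. At an unadjusted p under 0.05 limma gave 4 lower and 0 higher, against the same 10.6% and 7.37%, and the methods' comparison 1. The 4 were Hsd11b2, Scnn1b, Scnn1a and Slc12a3, with differences of -0.92, -0.76, -0.65 and -0.57. The difference was -0.01 for Sgk1 and 0.08 for Tsc22d3, and the part of aldosterone in these values was not tested. None of these 22 genes had groups that did not overlap.

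Around Atp6ap2, the 12 common subunits of the proton pump had a median difference of 0.03 and 0 calls. At an unadjusted p under 0.05 limma gave 1 of the 12, against 18.0% of everything tested, and the methods' comparison 1, against 11.3%. Atp6v1e1, the E subunit of the stalk, was the one whose groups did not overlap, at 3.44 to 3.67 in controls and 3.22 to 3.37 in NEKO mice (difference -0.26, adjusted p = 0.195 from limma). That is 1 of 12 lower without overlap, against 5.33% of everything tested. The subunits listed for intercalated cells all lay below control, 5 of 5 against 56.2% of everything tested, with a median of -0.90 and 0 calls. For Atp6v0a4, named after its values were seen, the difference was only -0.04, beside a median of -0.03 for everything tested. At an unadjusted p under 0.05 from limma 4 of the 5 were lower, against 10.6%, and the groups did not overlap for 1, Atp6v1g3, named after its values were seen, against 5.33%. Their mean level ran from 1.53 to 2.15 in controls and from 0.41 to 1.61 in NEKO mice. The brush border enzymes that share their site with Enpep, Mme and Ace had 10 of 11 tested, 0 calls and a median of -0.07. At an unadjusted p under 0.05 limma gave 1 of the 10 higher and 1 lower, against 7.37% and 10.6% of everything tested, and 1 passed by the methods' comparison, against 11.3%.

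Known targets of Nrf2 were counted in the same fit. Of 11 tested, 1 was called higher and 0 lower, where 0.0970% of everything tested was called higher and 0.128% lower. The called gene was Txnrd1, thioredoxin reductase, which rose by 1.30 (standard error 0.17, adjusted p = 0.0486 from limma), from a range of 3.65 to 3.97 in controls to one of 4.53 to 5.62 in NEKO mice. Its adjusted p lay between 0.0091 and 0.350 over 23 alternatives, and 13 of them did not call it. The groups did not overlap in 6 of the 11, all higher in NEKO mice, against 3.88% of everything tested, with differences of 2.62 for the quinone reductase Nqo1, 1.47 for sulfiredoxin Srxn1, 1.34 for Ugdh and 1.20 for glutathione reductase Gsr (adjusted p from 0.065 to 0.109 from limma). The median of the list was 1.01, and that of the 7 renin-angiotensin genes was 0.10.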

How the data were processed

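Kidney RNA of 4 NEKO and 4 control mice was measured on Agilent 1-colour mouse arrays, 1 for each mouse. The authors deposited spot intensity from Feature Extraction 10.7.3.1, in which the processed signal is background-subtracted and not normalized between arrays, and a matrix of log2 values. That matrix matched the log2 signal less the array's upper quartile, centred on each probe's median, within 0.01 for 100% of its values.

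Outlier spots were dropped (73 to 172 of 43379 on an array), spots of a probe averaged, and 26690 of 41174 probes named by transcript accession through RefSeq. Array coordinates are on mm9 and were not used. A probe was kept if well above background on 4 or more of 8 arrays with values on 6 or more, and the brightest kept probe stood for its gene. Genotype and sex were fitted in limma 3.58.1 (R 4.3.3), and a second model added their interaction. Second probes were fitted in a model over all kept probes. The procedure was tested on simulated data.

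The 7 genes and all lists were chosen with earlier results of these data known. Genes named are the 7 with all their probes, list genes that were called, up to 4 genes of a pathway list whose groups did not overlap, the 3 genes most like each of the 7, Keap1 and Ren2. Others are marked as chosen after their values were seen. Alternatives were a normexp correction (offset 50, on median signals), other scalings, filters, probe rules, covariates and variance models, the methods' comparison, the deposited matrix, and leaving out each mouse.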

Additional observations from a re-analysis of the deposited data

Results flagged for a closer look

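The effect of genotype on Akr1b7 differed between the sexes by 1.81 on the log2 scale, and every NEKO female lay below every control female while every NEKO male lay above every control male. The interaction had an unadjusted p of 0.0024 and an adjusted p of 0.147 from limma, and no explanation was tested.

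In 3 groups 1 mouse stood apart from its 3 group mates, by a gap of 0.857 of the group's range for Atp6v1e1 in NEKO mice, 0.91 for Nqo1 in control mice and 0.847 for Srxn1 in control mice, each past the 95% limit of Dixon's test for 4 values. The mouse was a NEKO male at 3.22 for Atp6v1e1. For Nqo1 and Srxn1 it was the same control male, at 1.24 and 2.76. In all 50 groups of 4 were looked at, and chance flags about 1 in 20. None of the 7 renin-angiotensin genes was among the 3.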

How the results depend on the processing

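No paired analysis was possible because the replicate numbers of the labels run over both groups and no number is shared. None of the 7 genes was called under any of 23 alternatives, nor for the interaction with sex under any of 18. Left-out mice turned the sign of differences near 0. Ren1 ran from -0.15 (without a control male) to 0.85, Agt from -0.23 to 0.021 (positive without NEKO female 2, control male 7 or control female 8), Ace from -0.077 to 0.33 (negative without NEKO female 2 or control female 8) and Agtr1a from -0.12 to 0.015 (positive without NEKO male 5, and 0.017 on the second probe). Ren2 ran from -0.31 to 0.66, Akr1b7 from -0.16 to 0.42, and the interaction of Agtr1a from -0.26 to 0.079. The interaction of Ren1 kept its sign, from 1.71 to 3.33, with adjusted p from 0.147 to 0.692. The normexp correction called 1 gene of the other renin-angiotensin list, 1 of the aldosterone list and 4 of the Nrf2 list. Averaging the effect over the sexes called 1, 2 and 6 of these and 2 of the renin release list. Array weights called 1 aldosterone and 2 Nrf2 genes, and eBayes with trend and robust 2 Nrf2 genes. The methods' comparison without adjustment passed 2 genes of the renin release list, 6 of the Nrf2 list, and 1 each of the angiotensin II, aldosterone, proton pump and brush border lists. The Nrf2 list had 0 calls under quantile normalization, scaling to the median, no filter, the filter on all 8 arrays, no sex term and the adjusted methods' comparison, and 0 to 1 with a mouse left out, 1 of them without NEKO female 2. Over all genes and transcripts, adjusted calls ran from 1 under the methods' comparison to 513 with the effect averaged over the sexes. The causes were not tested. With 2 mice of each sex in a group, the effects within a sex rest on single mice.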
